A study of Mus musculus with 2 samples.

Results

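The respiratory chain genes described here are the subunits, assembly factors and isoforms whose symbols begin with Nduf followed by a, b, c, s or v, with Uqcr, with Cox4 to Cox8 or with Atp5, the genes Sdha, Sdhb, Sdhc and Sdhd, and the protein-coding genes of the mitochondrial genome. The rule used symbols only and found 105 genes among the 27998 of the deposited matrices, 92 encoded in the nucleus and 13 in mitochondria. They were followed in 2 single-nucleus RNA libraries of mouse brain. ShamRT-28d came from mock-irradiated mice, which the sample labels call untreated, and WBRT-28d from mice given whole brain irradiation in 5 fractions of 2 Gy and harvested on day 28. C57BL/6J mice were used, whose whole brains were frozen and pooled 2 to a library, so that neither mouse nor brain region can be told apart. With 1 library per condition there was no replicate and no test between the conditions. Each value is a sum of unique molecular identifiers (UMIs, 1 for each captured transcript) per 1000000 UMIs (CPM), and each ratio is WBRT-28d over ShamRT-28d with an exact 95% interval that covers counting error only.

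Mitochondria make most of their ATP with 5 complexes in the inner membrane. Complexes I and II take electrons from NADH and succinate, complex III passes them to cytochrome c, complex IV hands them to oxygen, and complex V, the ATP synthase, uses the proton gradient. The subunits of complexes I, III, IV and V come from both genomes: mitochondrial DNA is transcribed inside the organelle as long polycistronic RNAs, whereas the Nduf, Sdh, Uqcr, Cox and Atp5 genes are transcribed in the nucleus and translated in the cytosol. A nuclear preparation should therefore hold nuclear transcripts of the second kind, and holds transcripts of the first kind only as far as mitochondria or their RNA stay with the nuclei.

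The ShamRT-28d file held 11469 barcodes with 45511469 UMIs and the WBRT-28d file 15986 barcodes with 68423922 UMIs, with medians of 2291 and 2565 UMIs per barcode. After barcodes with under 500 detected genes and called doublets were left out, 10448 and 14360 nuclei were kept, with no filter on mitochondrial UMIs. A nucleus was placed in a class when it held at least 3 different markers of 1 cell type at 2 times their average level or more and at 2 times the next type. This put 4934 ShamRT-28d nuclei (47.2%) and 6387 WBRT-28d nuclei (44.5%) in 10 classes, which are named for their markers ("astrocyte-like"). Among the other nuclei, 562 and 1024 came close, leading the next type by 1.5 to 2 times. The libraries shared 43 barcode sequences. The 10 leading genes of each class held from 1 (astrocyte-like) to 7 (OPC-like) of its own markers and 0 of another type, but OPC-like nuclei (oligodendrocyte precursors) also held inhibitory neuron markers at a median of 2.35 and 2.37 times average, mural-like nuclei fibroblast markers at 3.40 and 2.60 times, and fibroblast-like nuclei astrocyte markers at 2.43 and 2.07 times.

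Promoter sequence was looked up because many of the nuclear genes are known targets of the factors NRF1, GABP (of the ETS family) and YY1. RefSeq promoters of build GRCm38.p6, 250 bases before to 50 after the start of the gene, matched 73 of the 92 nuclear genes. The letters CGCATGCG (NRF1), searched on both strands, stood in 10 of the 73 (13.7%) against 1.91% of all 27025 promoters of the same length. CCGGAAG (ETS) stood in 16 (21.9%) against 9.12%, and AAGATGGC (YY1), which can share its first letters with the end of the ETS motif, in 8 (11.0%) against 2.88%. At least 1 of the motifs stood in 30 (41.1%) against 13.1%. Promoters are shown for 3 of the 4 genes that were lower in all 10 classes of WBRT-28d and for 1 that was higher in 9, picked after their values were seen. They lie at chr4:24897833-24898132 on the plus strand (Ndufaf4), and on the minus strand at chr13:86046746-86047045 (Cox7c), chr9:44920693-44920992 (Atp5l) and chr19:44555393-44555692 (Ndufb8). Capitals mark the motifs on either strand.
Ndufaf4: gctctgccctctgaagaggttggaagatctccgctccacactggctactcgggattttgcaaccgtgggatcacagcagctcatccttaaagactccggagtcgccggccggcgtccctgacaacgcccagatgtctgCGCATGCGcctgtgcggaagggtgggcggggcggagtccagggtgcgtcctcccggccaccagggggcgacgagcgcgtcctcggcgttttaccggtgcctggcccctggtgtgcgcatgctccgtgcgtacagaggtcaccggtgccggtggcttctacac
Cox7c: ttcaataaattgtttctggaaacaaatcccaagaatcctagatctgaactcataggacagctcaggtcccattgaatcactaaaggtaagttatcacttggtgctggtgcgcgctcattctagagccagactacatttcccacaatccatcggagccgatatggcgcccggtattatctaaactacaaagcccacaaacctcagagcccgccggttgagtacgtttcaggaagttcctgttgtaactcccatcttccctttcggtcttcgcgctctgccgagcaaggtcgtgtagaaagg
Atp5l: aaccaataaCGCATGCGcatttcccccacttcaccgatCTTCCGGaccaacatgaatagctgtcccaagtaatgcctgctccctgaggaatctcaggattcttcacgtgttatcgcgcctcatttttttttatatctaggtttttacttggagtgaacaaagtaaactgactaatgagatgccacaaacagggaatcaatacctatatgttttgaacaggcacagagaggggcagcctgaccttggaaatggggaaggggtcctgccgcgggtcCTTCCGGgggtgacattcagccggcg
Ndufb8: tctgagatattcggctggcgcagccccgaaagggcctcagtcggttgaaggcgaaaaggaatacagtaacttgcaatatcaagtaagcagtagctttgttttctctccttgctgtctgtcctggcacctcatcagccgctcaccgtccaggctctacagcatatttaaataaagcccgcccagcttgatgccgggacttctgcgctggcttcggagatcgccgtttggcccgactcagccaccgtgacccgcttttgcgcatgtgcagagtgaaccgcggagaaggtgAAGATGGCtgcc
Ndufaf4 held 1 NRF1 motif, Atp5l 1 NRF1 and 2 ETS motifs, Ndufb8 1 YY1 motif, and Cox7c none of the 3 in this window. The 3 genes that were lower in every class thus did not all share a motif among those searched, and a match is a run of letters rather than a shown binding site.

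The mitochondrially encoded transcripts were higher in WBRT-28d in every class, while the summed nuclear genes moved little. Over all gated nuclei the 13 mitochondrial genes went from 1504 to 3173 CPM, a ratio of 2.11 (2.08 to 2.14). The 92 nuclear genes went from 2907 to 3056, a ratio of 1.05 (1.04 to 1.06). Among the nuclei that fell in no class the ratios were 1.5 and 0.975. Transcripts of the 2 genomes that end in the same complexes thus differed between the libraries by very different amounts.

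**Figure D1:**
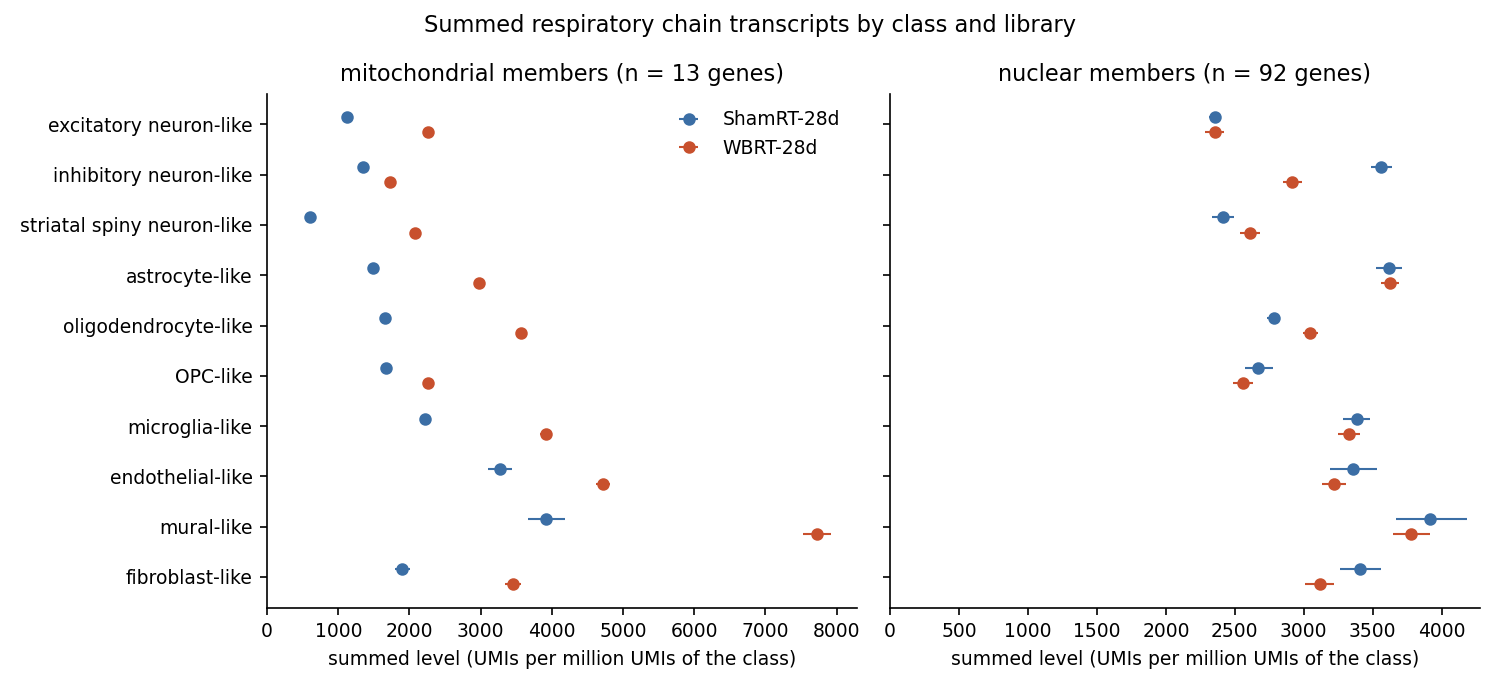
Summed CPM of the 13 mitochondrial genes and of the 92 nuclear genes, for each of the 10 classes in ShamRT-28d and WBRT-28d, with exact 95% intervals for counting error. The mitochondrial sum is higher in WBRT-28d in all 10 classes, by 1.29 to 3.43 times, and the nuclear sum stays within 0.820 to 1.10 times.

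Neurons spanned the whole range. In striatal spiny neuron-like nuclei (194 and 363), the projection neurons of the striatum, the mitochondrial sum was 606 CPM in ShamRT-28d, the lowest of any class, and 2078 in WBRT-28d, a ratio of 3.43 (3.19 to 3.69). Excitatory neuron-like nuclei (504 and 298) went from 1126 to 2254, a ratio of 2.00 (1.92 to 2.08). Inhibitory neuron-like nuclei (381 and 344) went from 1343 to 1730, a ratio of 1.29 (1.23 to 1.35), the lowest of the 10. Depth also differed between the libraries: the median nucleus held 6322.5 UMIs in ShamRT-28d and 3730 in WBRT-28d for the spiny class, 6998 and 4790.5 for the excitatory class, and 4501 and 5303.5 for the inhibitory class. Some single nuclei held many mitochondrial UMIs, the highest share being 21.7% and 17.0% in the excitatory class and 18.9% and 7.51% in the spiny class. In nuclei with 1000 to 5000 UMIs the ratios were 1.67 in the spiny, 1.38 in the excitatory and 1.60 in the inhibitory class, a narrower spread in another order. The part of depth in the differences between these classes was not tested.

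The glial classes were closer to each other in depth between the libraries. Oligodendrocyte-like nuclei (1810 and 1612), the myelin-forming cells, had median depths of 2237.5 and 2234.5 UMIs and a mitochondrial sum of 1650 and 3567, a ratio of 2.16 (2.10 to 2.22), which stayed at 2.07 between 1000 and 5000 UMIs. Astrocyte-like nuclei (556 and 1186) went from 1489 to 2980, a ratio of 2.00 (1.91 to 2.10), and 1.86 in that depth range. Microglia-like nuclei (645 and 800), the resident macrophages, went from 2221 to 3919, a ratio of 1.77 (1.69 to 1.84), and 1.94 in that range. OPC-like nuclei (283 and 513) went from 1675 to 2256, a ratio of only 1.35 (1.27 to 1.43), and 1.29 in that range. The intervals of the oligodendrocyte-like and OPC-like ratios, which cover counting error only, did not overlap. OPC-like nuclei had median depths of 3263 and 3285 UMIs, and they also held inhibitory neuron markers, as given above. The difference between the oligodendrocyte-like and OPC-like ratios and its cause were not tested.

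The 2 vascular classes held the most mitochondrial transcripts in CPM. Mural-like nuclei (124 and 303), pericytes and smooth muscle cells by their markers, were highest in both libraries, with 3923 and 7722, a ratio of 1.97 (1.84 to 2.11). Endothelial-like nuclei (247 and 654) were the next in both, with 3268 and 4718, a ratio of 1.44 (1.37 to 1.53). Fibroblast-like nuclei (190 and 314) had 1900 and 3456, a ratio of 1.82 (1.70 to 1.94). At 1000 to 5000 UMIs the ratios were 1.54, 1.67 and 1.77.

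The difference was seen in many nuclei. When each nucleus was thinned to 1000 UMIs, leaving out the 3 to 51 nuclei per class of ShamRT-28d that were shallower, the share of nuclei with any mitochondrial UMI was higher in WBRT-28d in each of the 10 classes. It was 62.5% against 86.2% in oligodendrocyte-like, 41.4% against 73.8% in spiny neuron-like and 61.5% against 72.1% in inhibitory neuron-like nuclei, and lay from 41.4% to 78.4% in ShamRT-28d and from 71.3% to 88.9% in WBRT-28d. Without thinning the shares were 82.5% to 95.6% and 95.7% to 98.7%. A nucleus has no mitochondria, so none of these classes can serve as one that lacks the transcripts, and what part of them was free RNA was not measured.

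Each mitochondrial gene was higher over all gated nuclei, and 12 of the 13 were at 1.5 times or more, where 8.11% of the 16952 genes with at least 20 UMIs were. Of complex I, mt-Nd1 went from 94.7 to 189 CPM (2.00 times), mt-Nd2 from 116 to 247 (2.12) and mt-Nd4 from 106 to 251 (2.36). The core subunit mt-Nd5 went from 22.4 to 52.0 (2.32), mt-Nd4l from 10.8 to 20.1 (1.85), and mt-Nd6, the single gene here on the minus strand, from 2.58 to 4.98 (1.93) on 47 and 106 UMIs. mt-Cytb, the heme-bearing core of complex III, went from 141 to 310 (2.20). The catalytic core of complex IV was evenly higher, with mt-Co1 from 207 to 421 (2.03), mt-Co2 from 210 to 444 (2.11) and mt-Co3 from 287 to 609 (2.12). Of the proton channel of complex V, mt-Atp6 went from 274 to 574 (2.09) and mt-Atp8 from 4.71 to 13.2 (2.81, interval 2.20 to 3.62). Genes that overlap on the same strand (mt-Nd4l with mt-Nd4, mt-Atp8 with mt-Atp6, and mt-Atp6 with mt-Co3) cannot be fully told apart by counting.

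mt-Nd3, another complex I subunit, was the exception. It went from 26.7 to 38.1 CPM, a ratio of 1.43 (1.27 to 1.60) that lies below those of the other 12. It took 1.77% of all mitochondrial UMIs in ShamRT-28d and 1.20% in WBRT-28d, and its share was lower in WBRT-28d in 9 of the 10 classes, by point value. In astrocyte-like nuclei it was 1.10% and 1.14%. mt-Nd4 went the other way, from 7.07% to 7.92%. The main components kept their places: mt-Co3 19.1% and 19.2%, mt-Atp6 18.2% and 18.1%, mt-Co2 14.0% in both, and mt-Co1 13.8% and 13.3%. The mixture of mitochondrial transcripts was thus nearly the same in both libraries, with a larger total in WBRT-28d.

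**Figure D2:**
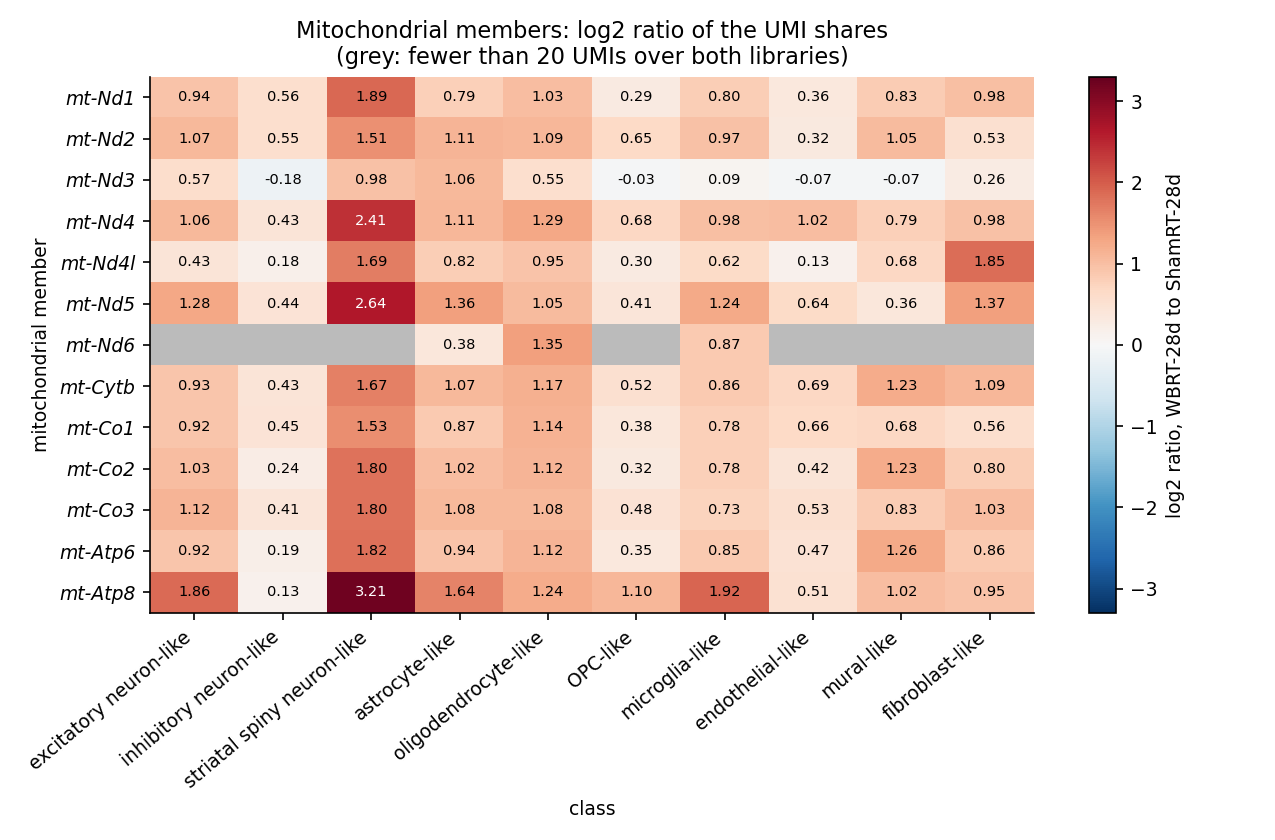
Log2 ratio of WBRT-28d over ShamRT-28d for each mitochondrial gene (rows) in each class (columns), on CPM; grey cells had under 20 UMIs over both libraries. Values are above 0 in nearly all cells, highest in spiny neuron-like nuclei (mt-Atp8 3.21, mt-Nd5 2.64), and mt-Nd3 was higher in 6 of the 10 classes.

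By class, the mitochondrial genes at 1.5 times or more were 12 of 12 measured in spiny neuron-like nuclei (16.6% of all genes there) and 10 of 12 in excitatory neuron-like nuclei (9.55%). They were 12 of 13 in astrocyte-like (8.96%), oligodendrocyte-like (15.1%) and microglia-like nuclei (17.6%). They were 10 of 12 in mural-like (24.1%), 9 of 12 in fibroblast-like (12.7%), 4 of 12 in endothelial-like (18.6%) and 3 of 12 in OPC-like nuclei (9.97%). In inhibitory neuron-like nuclei 0 of 12 were, where 5.41% of all genes were. No mitochondrial gene with at least 20 UMIs in a class was at 1.5 times lower there. Below that minimum, mt-Nd6 was at 0.436 in mural-like nuclei, on 2 and 3 UMIs.

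Of the 92 nuclear genes, 90 had at least 20 UMIs over all gated nuclei. Cox8b, a muscle isoform, had 3 UMIs in ShamRT-28d and 1 in WBRT-28d, and the testis isoform Cox8c had 0 in both, which allows up to 3 UMIs in each library. Of the 90, 59 were higher in WBRT-28d, 27 with an interval above 1 and 11 with one below 1, where 24.2% and 20.7% of all genes had such intervals. Only 3 were at 1.5 times higher or more, against 8.11% of all genes, and 1 was lower by as much, against 9.01%, so that 4 were past the limit in either direction, against 17.1%. The median log2 ratio was 0.11, beside 1.08 for the mitochondrial genes and 0.01 for all genes. Ndufa4l2 at 1.77 and Ndufb8 at 1.60 were among the higher ones, and the lower one was Cox7a1 at 0.48 on 16 and 9 UMIs. Ndufaf4, at 0.667 (0.61 to 0.74), lay just inside the limit.

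**Figure D3:**
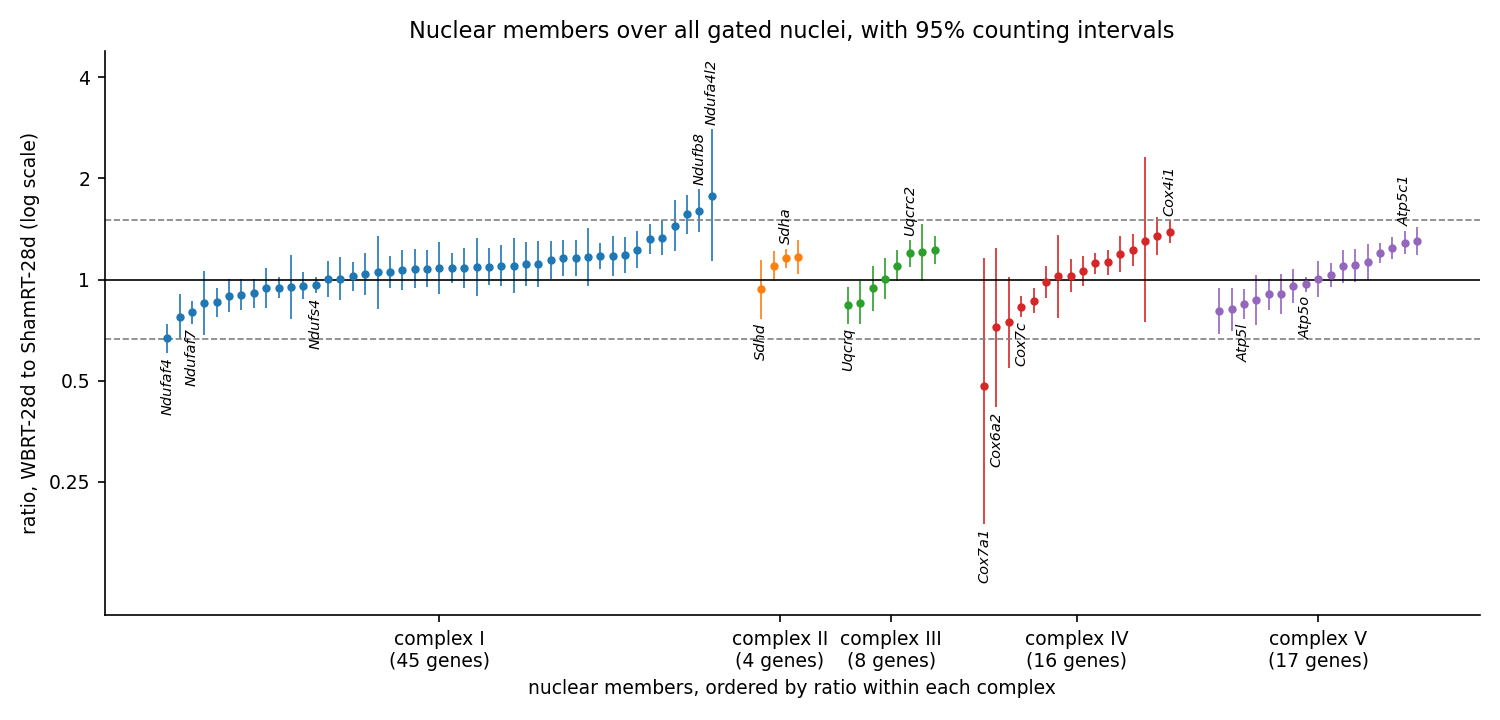
Ratio of WBRT-28d to ShamRT-28d, on a log axis, over all gated nuclei for the 90 nuclear genes with at least 20 UMIs, ordered by ratio within each complex, with exact 95% intervals for counting error and dashed lines at 1.5 times in either direction. Most points lie between the dashed lines, 4 lie beyond them, and the widest intervals belong to the low-count isoforms.

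The nuclear genes of complex I, the NADH dehydrogenase, had a summed ratio of 1.03 over all gated nuclei. By class the ratio of the complex lay from 0.857 in inhibitory neuron-like to 1.07 in oligodendrocyte-like nuclei, below 1 in most classes. Its most counted genes were Ndufs4, a late-added subunit, with 128 and 123 CPM in the 2 libraries (0.963), Ndufs1, which carries iron-sulfur clusters, with 76.8 and 72.6 (0.945), Ndufaf7, a methyltransferase of assembly, with 70.0 and 55.8 (0.798, interval 0.737 to 0.865), and Ndufv2 with 47.7 and 55.9 (1.17). Ndufaf4, an early assembly factor of the complex, went from 52.1 to 34.8 and was lower in 10 of 10 classes, 6 with an interval below 1, from 0.577 in inhibitory neuron-like to 0.84 in mural-like nuclei. Its UMIs were 251 and 60 in excitatory neuron-like, 170 and 97 in inhibitory neuron-like, 181 and 108 in oligodendrocyte-like and 100 and 184 in astrocyte-like nuclei. Ndufb8, an accessory subunit, went from 15.5 to 24.8 and was higher in 9 of 10 classes, the exception being inhibitory neuron-like nuclei at 0.90 (0.592 to 1.35). It shares part of its locus with Gm20538 on the same strand.

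Complex II is encoded in the nucleus alone and is also an enzyme of the citric acid cycle. Pooled over all gated nuclei, whose numbers per class differed between the libraries, it had a ratio of 1.13, the highest of the 5. By class its ratio lay from 0.966 in excitatory neuron-like to 1.16 in spiny neuron-like nuclei, the only class above the pooled value. Sdha, its flavoprotein, went from 88.4 to 102 CPM (1.16, interval 1.08 to 1.23). Sdhc, a membrane anchor, was at 1.17, the iron-sulfur subunit Sdhb at 1.10, and the other anchor Sdhd at 0.935. Complex III had a pooled ratio of 1.07, and by class from 0.767 in inhibitory neuron-like to 1.16 in spiny neuron-like nuclei. Its core subunit Uqcrc2 went from 44.6 to 53.3 (1.20), Uqcrh, the hinge protein, was at 1.22 and Uqcrc1 at 1.10. Uqcrq, a small subunit beside cytochrome b, went from 28.7 to 24.0 (0.837, interval 0.740 to 0.947). Uqcrq was below 1 in all 10 classes, as low as 0.48 (0.337 to 0.681) in inhibitory neuron-like nuclei. The subunits of 1 complex thus did not move together. Over all complexes, 73 nuclear genes had at least 20 UMIs in each of the 10 classes. Of these, 4 (Ndufaf4, Uqcrq, Cox7c and Atp5l) were below 1 in every class, where 2.02% of the 7075 such genes were. Of the mitochondrial genes 11 of 12 were above 1 in every class, where 3.32% of all such genes were.

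Complex IV had a pooled ratio of 1.07, and by class from 0.756 in inhibitory neuron-like to 1.21 in spiny neuron-like nuclei. Of its 4 most counted genes, 2 went in opposite directions over all gated nuclei. Cox4i1, through which ATP inhibits the enzyme, went from 55.8 to 77.3 CPM (1.39, interval 1.28 to 1.5), and Cox7c, a small subunit, went from 81.6 to 67.8 (0.831, interval 0.772 to 0.894). Cox4i1 was above 1 in 9 of 10 classes, from 28.3 to 62.6 in spiny neuron-like (2.21, interval 1.54 to 3.23) and 36.1 to 62.2 in excitatory neuron-like nuclei (1.72), but went from 63.5 to 47.2 in inhibitory neuron-like nuclei (0.743, interval 0.577 to 0.956). It overlaps Gm20388 on the same strand. Cox7c was below 1 in 10 of 10 classes, from 0.53 in inhibitory neuron-like (95.8 to 51.0) to 0.96 in endothelial-like nuclei, with 6 intervals below 1. Cox8a went from 73.0 to 81.5 (1.12) and Cox7b from 60.4 to 52.3 (0.865).

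Complex V had a pooled ratio of 1.06. By class it lay from 0.777 in inhibitory neuron-like to 1.13 in oligodendrocyte-like nuclei, the only class above the pooled value. Over all gated nuclei, the most counted genes of the catalytic head and its stalk were higher. Atp5a1 went from 82.2 to 98.5 CPM (1.20), Atp5b from 65.8 to 81.6 (1.24) and Atp5c1, the rotating stalk, from 54.1 to 69.6 (1.29). Atp5o, of the peripheral stalk, stayed at 147 and 142 (0.967). It stood highest in astrocyte-like nuclei of both libraries, with 285 and 286, and was lower in microglia-like nuclei, from 166 to 104 (0.627, interval 0.517 to 0.759) and in mural-like nuclei from 181 to 112 (0.615). Atp5l, a membrane subunit, was at 0.84 and below 1 in all 10 classes, with 3 intervals below 1. Atp5l has 2 named pseudogenes in a mouse gene annotation, Uqcrh 2, and Atp5c1, Atp5k and Ndufab1 1 each. Whether the deposited matrices count these pseudogenes was not checked, and how reads were divided between them and the genes was not tested.

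Inhibitory neuron-like nuclei had the lowest nuclear ratio of the 10 classes. Their sum went from 3560 to 2918 CPM, a ratio of 0.820 (0.794 to 0.846), and 20 of 86 measured genes were at 1.5 times lower or more and 0 higher, where 13.2% and 5.41% of all genes were. The lower ratio held for complexes I (0.857), III (0.767), IV (0.756) and V (0.777), whereas complex II was at 1.05 (0.913 to 1.22). Leading genes were Cox7c, Uqcrq and Cox6b1, which went from 50.01 to 27.2 (0.54, interval 0.395 to 0.743). Cytosolic ribosomal protein transcripts were lower in the same nuclei, by 0.806. The mitochondrial sum of these nuclei was higher, as given above, so that the 2 genomes moved in opposite directions.

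Spiny neuron-like and oligodendrocyte-like nuclei had the highest nuclear ratios. In spiny neuron-like nuclei the sum went from 2415 to 2607, a ratio of 1.08 (1.03 to 1.13), with 17 of 84 genes past the limit higher and 3 lower, where 16.6% and 10.1% of all genes were. Cox8a went there from 40.1 to 67.8 (1.69), Cox6c from 31.8 to 55.4 (1.74), and Ndufaf4 from 64.3 to 38.5 (0.60). The sum of this class turned to 0.903 in nuclei with 1000 to 5000 UMIs and to 0.980 as a mean over nuclei. In oligodendrocyte-like nuclei it went from 2782 to 3048, a ratio of 1.10 (1.07 to 1.12), with 6 of 85 genes past the limit higher and 0 lower, where 15.1% and 7.13% of all genes were. Ndufb8 was at 1.82 there, and Atp5h, of the peripheral stalk, went from 39.97 to 62.7 (1.57, interval 1.29 to 1.90).

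The other 7 classes had nuclear sums of 0.914 to 1.0 times. Excitatory neuron-like nuclei had 2356 and 2354, with 6 genes past the limit higher and 8 lower of 85 (9.55% and 12.2% of all genes). Ndufa5 (1.68) and Ndufb10 (1.63) were higher there and Ndufa4, a complex IV subunit that was counted with complex I by its name, lower (33.6 to 20.4, ratio 0.61). Astrocyte-like nuclei had 3615 and 3626, with 1 higher and 3 lower of 86 (8.96% and 9.91%), led by Ndufc2, from 56.2 to 37.1 (0.66). Microglia-like nuclei had 3384 and 3329, with 4 higher and 3 lower of 84 (17.6% and 10.6%), among them Uqcrc1 at 1.55 (1.06 to 2.29). OPC-like nuclei had 2671 and 2556, with 5 higher and 8 lower of 83 (9.97% and 9.88%), none of them with 100 UMIs. Endothelial-like nuclei had 3355 and 3221, with 8 higher and 8 lower of 82 (18.6% and 13.3%), Atp5c1 going from 38.1 to 67.3 (1.76) and Atp5j from 76.3 to 40.2 (0.53). Mural-like nuclei had 3918 and 3781, with 13 higher and 10 lower of 75 (24.1% and 13.9%), Cox7c being at 0.59. Fibroblast-like nuclei had 3408 and 3115, a ratio of 0.914 (0.865 to 0.965), with 9 higher and 11 lower of 80 (12.7% and 12.5%), Cox7b going from 90.1 to 50.2 (0.56) and Ndufs4 from 193 to 128 (0.66).

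Several subunits exist as isoforms with narrow expression, and 2 of these marked mural-like nuclei. Ndufa4l2, a hypoxia-responsive relative of Ndufa4, had 27 and 45 UMIs there, that is 117 CPM in ShamRT-28d and 56.4 in WBRT-28d, a ratio of 0.48 (0.29 to 0.81). Cox4i2, the isoform of Cox4i1 used in low oxygen, had 17 and 22 UMIs, 73.4 and 27.6 CPM, a ratio of 0.38 (0.19 to 0.75). Neither had more than 8 UMIs in another class of either library. Both were thus lower per mural-like nucleus UMI in WBRT-28d, while the ratio of 1.77 for Ndufa4l2 over all gated nuclei, among which mural-like nuclei numbered 124 and 303, became 0.552 with every class weighted equally.

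The muscle isoform Cox6a2 had 32 and 27 UMIs over all gated nuclei, and the most of any class in inhibitory neuron-like nuclei, with 18 and 9 UMIs, 7.56 and 3.82 CPM, a ratio of 0.51 (0.20 to 1.19) whose interval holds 1. Cox6b2, known from testis, was highest in fibroblast-like nuclei, with 23 and 17 UMIs, 37.0 and 15.5 CPM, a ratio of 0.42 (0.21 to 0.82). In astrocyte-like nuclei it had 18 and 41 UMIs, 11.8 and 11.6 CPM. Over all gated nuclei the ratio of Cox6b2 was 1.02 and that of Cox4i2 1.30 (0.749 to 2.31). Among the common isoforms, over the same nuclei, Cox6a1 was at 1.22, Cox6b1 at 0.985, Cox7a2 at 1.03, Cox7a2l, a supercomplex factor, at 1.35 (1.18 to 1.54), and Ndufa4 at 0.857. Of the genes of the c-ring of complex V, which encode the same mature protein, Atp5g1 was at 1.09, Atp5g2 at 1.10 and Atp5g3 at 1.0, with intervals that all hold 1.

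**Figure D4:**
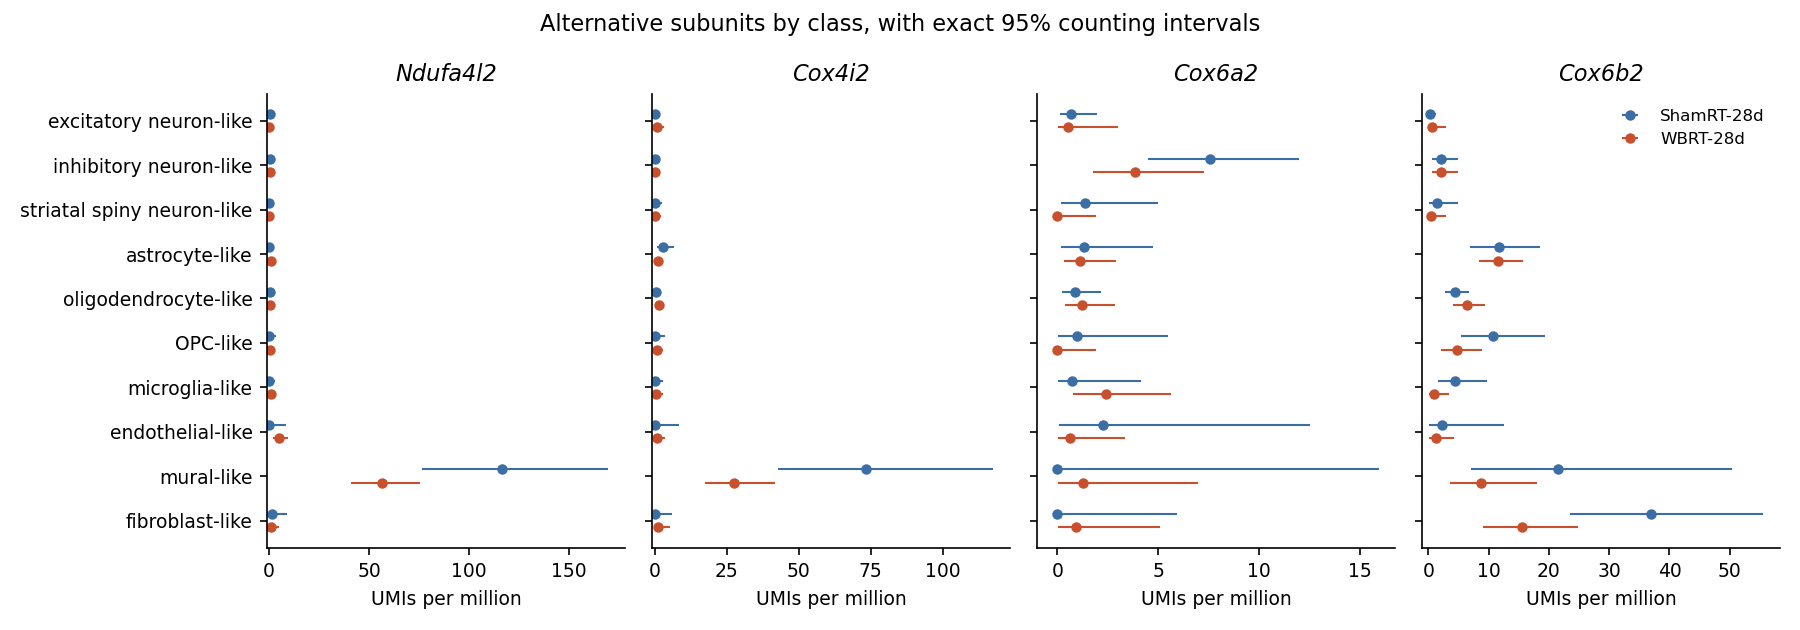
CPM of the isoforms Ndufa4l2, Cox4i2, Cox6a2 and Cox6b2 in each class of both libraries (points) with exact 95% intervals for counting error, each panel on its own scale. Ndufa4l2 and Cox4i2 stand highest in mural-like nuclei and are lower there in WBRT-28d (117 to 56.4 and 73.4 to 27.6).

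Other genes of mitochondrial function stayed close to 1. The 35 assembly factors and cytochrome c genes had a summed ratio of 0.970, with 14 higher, 0 past the limit higher and 1 lower (8.11% and 9.01% of all genes), and a median log2 ratio of −0.04. Ttc19, a complex III factor, was at 0.942 and Timmdc1, a complex I factor, at 0.850. The 20 regulators of mitochondrial biogenesis were at 1.13, with 15 higher and a median of 0.16, among them Nrf1 at 1.21 and the nuclear receptor Esrrg at 0.968. Of the 77 mitochondrial ribosomal protein genes, which translate the mitochondrial transcripts, 76 were measured and 36 were higher, with a sum of 0.986 and a median of −0.02 (Mrps9 1.10, Mrps28 1.20). None of these lists moved by as much as the mitochondrial genes. Their counts of higher genes are given without the share of all genes that were higher.

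Lists of transcripts from other compartments also differed between the libraries, but not in the same way in each class. The cytosolic ribosomal protein genes went from 2825 to 3377 CPM (1.20), with 64 of 81 measured of the 84 higher and a median log2 ratio of 0.29. Their ratio was 1.38 in spiny neuron-like, 1.28 in oligodendrocyte-like, 0.806 in inhibitory neuron-like, 0.950 in endothelial-like and 0.905 in fibroblast-like nuclei. A list of 15 transcripts that are abundant in cytoplasm went from 2328 to 3026 (1.30), all 15 higher, among them Apoe at 1.30 and Cst3 at 1.19. These values are pooled over classes whose numbers of nuclei differed between the libraries, such as 556 and 1186 astrocyte-like nuclei. The share of all genes that were higher is not set beside these counts. Its sum was at 1.78 in spiny neuron-like, 1.47 in excitatory neuron-like and 1.38 in oligodendrocyte-like nuclei, at 1.03 in inhibitory neuron-like nuclei, and below 1 in astrocyte-like (0.861) and microglia-like nuclei (0.855). Transcripts that stay in the nucleus were lower, Malat1 from 60365 to 48084 (0.797) and Meg3 at 0.816, with the sum of the 7 such genes from 0.670 in mural-like to 0.889 in microglia-like nuclei and below 1 in every class. Neuronal transcripts in glia, a measure of RNA from other cells, went from 818 to 1481 CPM in oligodendrocyte-like (1.81), from 1423 to 2595 in microglia-like (1.82), from 1137 to 1598 in OPC-like (1.41) and from 1175 to 1305 in astrocyte-like nuclei (1.11). The part of these differences in the mitochondrial ratios was not tested.

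Nuclei were then grouped by the share of their UMIs that was mitochondrial, to see whether the nuclear genes move with it. Over all kept nuclei, nuclear respiratory chain transcripts rose with that share in both libraries, from 2518 CPM at 0 to 0.1% to 5721 at 1 to 5% in ShamRT-28d and from 2321 to 5481 in WBRT-28d. Over these nuclei the value was lower in WBRT-28d at each share, with ratios of 0.961 at no mitochondrial UMI, 0.922, 0.887, 0.914, 0.921 and 0.958 in the successive bins, and 0.660 above 5%. The pooled ratio over these nuclei was 1.0, from 2950 to 2956. The nuclei of WBRT-28d lay at higher shares: 1278 ShamRT-28d nuclei and 410 WBRT-28d nuclei had no mitochondrial UMI, and 2052 and 4470 had 0.2 to 0.5%. Within single classes the picture was less even. With the bins of WBRT-28d weighted as in ShamRT-28d, the ratio was below 1 in each of the 10 classes, from 0.796 in inhibitory neuron-like to 0.989 in oligodendrocyte-like nuclei, and it was 0.963 over all gated nuclei. Single bins were nevertheless higher in WBRT-28d, 4 of 7 in oligodendrocyte-like, 3 of 6 in OPC-like and 3 of 7 in endothelial-like nuclei, and 2 of 7 over all gated nuclei.

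**Figure D5:**
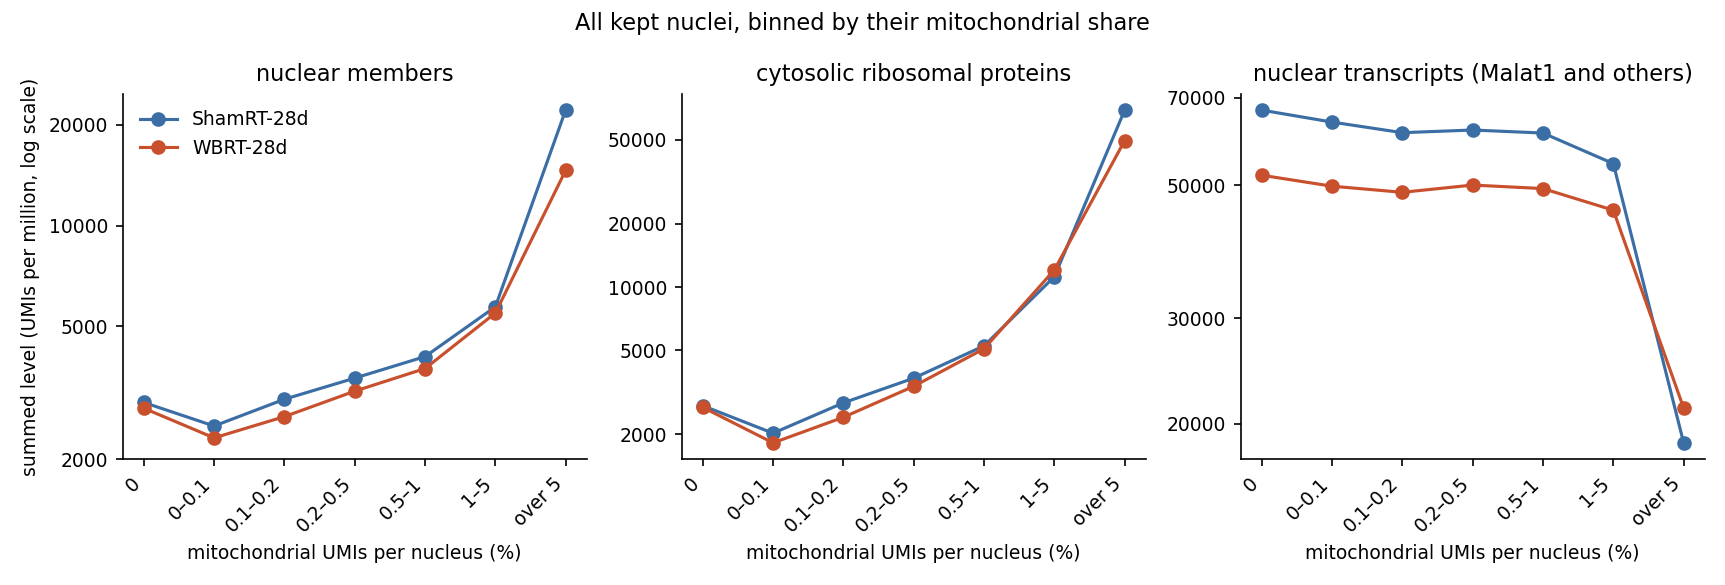
Summed CPM of the nuclear respiratory chain genes, of the cytosolic ribosomal protein genes and of nuclear-retained transcripts (3 panels, log axes) for kept nuclei of ShamRT-28d and WBRT-28d, in bins of the mitochondrial share of each nucleus. The nuclear respiratory chain values rise with the share above 0.1% in both libraries, to 22177 and 14636 above 5%, with WBRT-28d below ShamRT-28d in every bin, while nuclear-retained transcripts are lowest above 5%.

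Nuclei above 5% mitochondrial UMIs numbered 106 in ShamRT-28d (1.01% of the kept ones) and 317 in WBRT-28d (2.21%), and held 31.3% and 31.4% of all mitochondrial UMIs. Only 11 and 56 of them passed the marker rule. Most nuclear genes of the same complexes were also higher there than in the remaining nuclei: 79 of the 91 found in ShamRT-28d and 83 of the 92 found in WBRT-28d. Of these, 71 and 76 had an interval above 1, and the median ratio was 7.24 and 5.27. The same counts over all genes are not given, so whether these genes stood out from the rest there was not shown. Examples among the higher ones were Cox8a with 2019 against 73.6 CPM (27.4 times) in ShamRT-28d and 1223 against 69.9 (17.5 times) in WBRT-28d, Cox4i1 at 25.9 and 16.9 times, and Atp5e at 28.2 and 15.2 times. Others did not follow: Ndufs4 was at 1.22 and 0.94 times, Atp5o at 1.60 and 1.54, Ndufaf4 at 0.48 and 0.57, and Ndufaf7 at 0.16 and 0.58. Cytosolic ribosomal protein transcripts reached 69162 and 49561 CPM in these nuclei, and nuclear-retained ones were at 18577 and 21235. Ndufaf4 and Ndufaf7, picked here after their values were seen, were low by point value in these nuclei of both libraries. In ShamRT-28d their values rest on few UMIs, since these nuclei held only 171394 UMIs of all genes. Both genes were also among those lower in WBRT-28d over all gated nuclei. Only 1 nuclear gene had an interval below 1 in these nuclei of ShamRT-28d, and 3 had one in WBRT-28d, again without the share of all genes. A link between these observations was not tested.

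Gene length differs between these genes and the rest, and intronic reads were counted. The nuclear genes span 0.953 to 156 kb with a median of 7.42 kb, against 24.4 kb for all genes with at least 20 UMIs. Within bins of length the median log2 ratio of the members and of all genes was 0.01 and −0.08 under 5 kb (28 members), 0.11 and −0.03 from 5 to 10 kb (31), 0.13 and −0.01 from 10 to 20 kb (17), 0.21 and 0.01 from 20 to 50 kb (11), and −0.14 and 0.05 above 50 kb (3). The small upward shift of the nuclear genes over the pooled gated nuclei was thus present in each bin up to 50 kb. With every class weighted equally, the summed ratio of the nuclear genes turned its direction, as given below.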

How the data were processed

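Nuclei of frozen mouse brains were isolated with a kit and sequenced on the Chromium system. Raw UMI counts per gene and barcode were made by the authors with Cell Ranger 5.0.0 from a pre-mRNA reference (mm10), so that intronic reads count, and deposited per library. The processing notes of the submitters also name Seurat 3.0 and R 3.5.3. The deposited counts carry no normalization, cell type or mouse of origin.

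Counts were analysed with scipy 1.17.1 under Python 3.11.15, numpy 2.4.6, pandas 2.3.3 and scanpy 1.11.5, through which Scrublet called 698 and 1626 doublets (6.09% and 10.2%). Barcodes with under 500 detected genes (326 in ShamRT-28d, 0 in WBRT-28d) were dropped. Markers were listed at the outset, but the gating rule was set after the data were seen, and a class needed 100 nuclei per library. UMIs were summed per class and divided by all UMIs of the class. Ratios have exact conditional binomial 95% intervals, and the code was tested on simulated data. A gene was measured with at least 20 UMIs over both libraries and counted past the limit at 1.5 times.

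Genes named are all mitochondrial ones, the 4 most counted per complex, isoform pairs, and per class up to 3 in each direction with at least 100 UMIs. Atp5l and Atp5e, outside these rules, and genes with 1 direction in every class were picked after their values were seen. So were further values of Ndufaf4 and Ndufaf7, which the rules name. A result that these rules name is not reported here. The genes and lists were chosen with earlier results of these data known. Alternatives changed the doublet, gene, gate, depth and mitochondrial filters, the scaling, the minimum and the limit.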

Additional observations from a re-analysis of the deposited data

Results flagged for a closer look

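For 7 nuclear genes the interval was above 1 in at least 1 class and below 1 in another, with at least 100 UMIs in each. At least 1 of these ratios also had to be at 1.5 times or beyond in either direction. The share of all genes that meet this rule was not counted, and the difference between the classes was not tested. Cox5b, a zinc-binding subunit of complex IV, was at 1.33 in oligodendrocyte-like and 0.626 in inhibitory neuron-like nuclei. Ndufs5, of complex I, was at 1.27 and 0.641 in the same classes. Cox4i1 was at 2.21 in spiny neuron-like and 0.743 in inhibitory neuron-like nuclei, and Cox8a at 1.69 and 0.737. Uqcrc1 was at 1.55 in microglia-like and 0.696 in inhibitory neuron-like nuclei. Ndufc2 was at 1.39 in excitatory neuron-like and 0.661 in astrocyte-like nuclei, and Atp5j at 1.28 in oligodendrocyte-like and 0.528 in endothelial-like nuclei. The inhibitory neuron-like class gave the lower value in 5 of the 7.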

How the results depend on the processing

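Counting intervals leave out the differences between mice, and 1 library per condition cannot show them. No paired analysis was possible because each condition has 1 library. The mitochondrial ratio of 2.11 over all gated nuclei became 2.03 without nuclei above 5% mitochondrial UMIs, 2.05 with called doublets kept, 2.24 with a stricter marker rule, 1.84 in nuclei of 1000 to 5000 UMIs, 1.88 as a mean over nuclei and 1.81 with classes weighted equally, a choice made after seeing the data. The nuclear ratio of 1.05 became 1.07 with the stricter rule, 1.04 at 1000 to 5000 UMIs, 1.03 as a mean over nuclei and 0.971, turning its direction, with classes weighted equally, where 3.83% of all genes were past the limit higher and 11.2% lower. The 4 nuclear genes past the limit became 1 at 1000 to 5000 UMIs, where 8.77% of all genes were higher and 8.62% lower. They became 2 with a minimum of 100 UMIs, where these shares of all genes were 6.41% and 5.28%. With a limit of 25% in place of 50% they became 17, where the shares were 18.02% and 18.29%. The count of mitochondrial genes stayed within 11 to 13. In the classes the mitochondrial sum stayed above 1 in 80 of 80 alternatives (1.22 to 4.62), and in spiny neuron-like nuclei it was 4.18 without nuclei above 5% and 1.69 as a mean over nuclei. Nuclear class sums lay from 0.813 to 1.11, turning in spiny neuron-like nuclei to 0.903 at 1000 to 5000 UMIs and 0.980 as a mean over nuclei. Cox8a turned to 0.851 in that class at 1000 to 5000 UMIs, and over all gated nuclei Cox8a turned to 0.992 and Ndufa4l2 to 0.552 with classes weighted equally. The cause of these changes was not tested, other than that equal weighting removes the differing numbers of nuclei per class.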
